A study of Tachysurus fulvidraco x Tachysurus vachelli with 6 samples.

Results

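The unsupplemented liver of hybrid yellow catfish was described from the 3 control libraries (C_liver) out of the 6 libraries of the series, chosen by their label alone. The fish were juvenile crosses of a Tachysurus fulvidraco female and a Pseudobagrus vachellii male, which the labels list as Tachysurus fulvidraco x Tachysurus vachelli. They received feed with 0 g/kg of Acanthopanax senticosus, the Siberian ginseng whose powder was the additive under study, for 56 days. The other 3 libraries, from supplemented fish, were not used here. The fish were held in tanks, fasted before sampling, and liver RNA was mixed within the group before poly(A)-selected, paired-end sequencing. The number of fish behind each library was not stated, so the spread given below is between libraries and may be partly technical.

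The liver makes most of the proteins of blood plasma, among them the apolipoproteins that package fat and cholesterol, the carriers of iron, haem, copper, retinol and thyroid hormone, the clotting factors, complement and the protease inhibitors that restrain them. It also stores and releases glucose, synthesises cholesterol and fatty acids, breaks down amino acids and conjugates foreign compounds. Hepatocytes carry out nearly all of this work, while red cells, macrophages, endothelium, bile duct and stellate cells make up the rest of the organ.

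The 3 libraries held 48456874, 51459627 and 46303095 counts on annotated genes in replicates 1, 2 and 3. All genes in the table lie on 612 scaffolds with names starting in NW, and no list of mitochondrially encoded genes was formed. Ranks and shares of counts or FPKM are therefore among the genes in the table, and may leave such genes out. A gene was taken as detected at a mean of at least 1 FPKM (fragments per kilobase of transcript scaled to library size) over the 3 libraries, and 11442 of the 28288 genes in the table passed. Among them, 7156 carried at least 1 KEGG pathway, 62.5% of the detected genes. All 15427 genes with a pathway, detected or not, held 79.0% ± 0.163 (SD, n = 3) of FPKM. Genes with no description or an uncharacterized one made up 5.94% of the detected genes. All 5669 such genes, detected or not, held 2.93% ± 0.491 of FPKM. Replicate 3 stood apart from the others. It had 17124 genes with a count, against 17687 and 17818, and needed 80 genes to reach 50% of its counts, against 105 and 108. Its own 20 most abundant genes took 32.9% of its counts, against 26.6% and 27.2% for the own 20 of replicates 1 and 2, which were partly other genes. Counting error was small for the gene lists, and the widest 95% Wilson interval of any list's share of counts spanned 0.0259 percentage points. That interval covers counting error only, takes each count as an independent fragment, and does not describe single genes with few counts.

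A small number of transcripts filled the liver transcriptome. The 142 genes with a mean of at least 1000 FPKM held 70.0% ± 1.45 of summed FPKM (SD, n = 3), and 79 of them encoded cytosolic ribosomal proteins while 30 encoded secreted plasma proteins. The 20 genes with the largest share of counts held 26.2%, 26.8% and 32.6% of counts in replicates 1, 2 and 3, with a mean of 28.5% ± 3.53. Of these 20 genes, 19 were on the plasma protein lists and 0 encoded ribosomal proteins. Counts grow with transcript length, and ribosomal protein transcripts are short. Per length, 16 of the 30 most abundant genes encoded ribosomal proteins and 10 encoded plasma proteins. The libraries shared much of their top ranks. By FPKM, 21 genes were among the 30 highest of every library, and by counts 14 were among the 20 highest of every library.

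The most abundant transcript in the table was LOC113652856, an apolipoprotein A-I-2-like gene whose mammalian relative is the main protein of high-density lipoprotein. It stood at 42047, 47354 and 56983 FPKM in replicates 1, 2 and 3, a mean of 48795 ± 7571, and took 5.87% ± 0.905 of counts. It lies on scaffold NW_020847926.1 from 717927 to 719530 on the plus strand. LOC113639961, described as a 65 kDa warm temperature acclimation protein precursor, came next at 30482, 27182 and 51115 FPKM (36260 ± 12971) and lies on NW_020848328.1 from 418656 to 421984. This protein is the haemopexin-like haem carrier of bony fishes. It had the highest mean share of counts, 6.83% ± 2.43, with 5.73%, 5.14% and 9.61% in the libraries, but in replicate 2 LOC113652856 was above it with 5.71%. apoc1, an apolipoprotein of triglyceride-rich particles and high-density lipoprotein in mammals, had 29525, 34204 and 38492 FPKM. The order of the leading pair was the same in every library, whereas LOC113639961 exceeded apoc1 in replicates 1 and 3 and was below it in replicate 2. Together the 3 genes held 14.0%, 15.1% and 19.0% of FPKM.

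**Figure D1:**
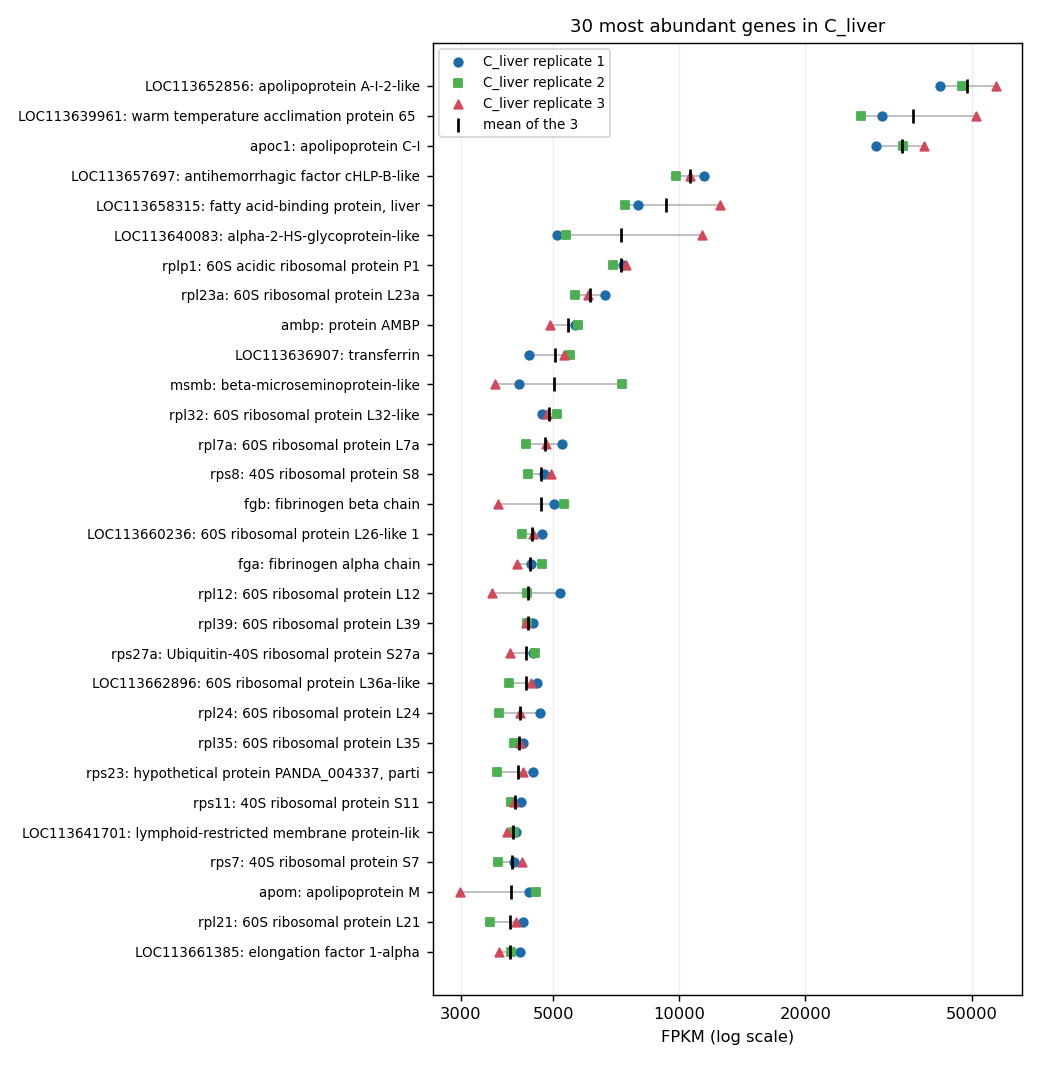
FPKM (log axis) of the 30 most abundant genes in each of the 3 C_liver libraries, with the mean as a bar and a grey line from the lowest to the highest library. The leading 3 genes lie between 27182 and 56983 FPKM, apart from all others, and the ribosomal protein genes lie close together with little spread.

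The next gene was LOC113657697, described as antihemorrhagic factor cHLP-B-like, a protein family named from snake serum inhibitors of venom metalloproteinases. It was even across libraries, with 11461, 9809 and 10597 FPKM. LOC113658315, a liver fatty acid-binding protein that carries fatty acids in the cytosol, had 7950, 7400 and 12501 FPKM. LOC113640083, alpha-2-HS-glycoprotein-like, a fetuin that binds calcium phosphate in plasma, had 5094, 5369 and 11343 FPKM. Both were highest in replicate 3 and similar in the other libraries.

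The 7 lists of secreted plasma proteins together covered 149 detected genes and held 30.8% ± 2.08 of FPKM, or 37.5% ± 2.71 of counts. Their share of FPKM was 28.8%, 30.7% and 33.0% in replicates 1, 2 and 3. Among the 7 lists, that of iron, haem and copper carriers also took in ferritin genes, whose products store iron inside cells. The total is therefore not of secreted proteins alone. Apolipoproteins were the largest of these lists by FPKM, with 15 of 18 members detected and 12.1% ± 1.17 of FPKM. By counts they held 9.41% ± 0.886, and the iron, haem and copper carriers 9.69% ± 2.74. The family was steep. After LOC113652856 and apoc1 came apom, which binds sphingosine phosphate on lipoproteins, with 4369, 4550 and 2983 FPKM, and LOC113651712, an apolipoprotein A-I-like gene, with 1564, 3182 and 693 FPKM. apoh, the phospholipid-binding beta-2-glycoprotein, had 472, 500 and 321 FPKM. LOC113655586, an apolipoprotein B-100-like gene for the structural protein of very low-density lipoprotein, had 474, 471 and 154 FPKM, so replicate 3 was lowest. A second gene described as apolipoprotein B-100, LOC113659499, had 112, 112 and 79.1 FPKM. LOC113652857, the apolipoprotein A-I-2-like copy that ends 1062 bp before LOC113652856 starts, had only 4.68, 9.93 and 40.9 FPKM. Because these copies are alike in description and the treatment of reads that fit several places was not given in the sources used here, the split between them is uncertain.

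Carriers of iron, haem and copper held 6.63% ± 1.68 of FPKM over 12 detected genes. Neighbouring transferrin genes, whose product carries iron in plasma, had different listed values. LOC113636907 had 4363, 5492 and 5303 FPKM, while LOC113636908, 5866 bp away on the same strand, had 1124, 1419 and 5032 FPKM and was thus far higher in replicate 3. Their sum was 5487, 6911 and 10335 FPKM. As the treatment of reads that fit several places was not given, the split between these genes is uncertain too. cp, the copper-carrying ferroxidase ceruloplasmin, had 1791, 2299 and 1213 FPKM. LOC113649011, the second warm temperature acclimation protein, had 1339, 1872 and 1266 FPKM, well under the first. The ferritin genes, whose products store iron inside cells, differed in opposite directions. LOC113654112, a middle subunit, had 1190, 809 and 322 FPKM, whereas fth1, the heavy chain, had 489, 623 and 1013 FPKM. hamp, the iron-regulating hormone hepcidin, had 12.5 and 6.43 FPKM in replicates 1 and 2, from 784 and 430 counts. In replicate 3 it had 0 counts, which allows up to 0.0648 CPM, the counts scaled to a common library total.

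Protease inhibitors held 5.83% ± 0.269 of FPKM over 38 detected genes. ambp, the precursor of alpha-1-microglobulin and the inhibitor bikunin, was similar in all libraries with 5641, 5710 and 4902 FPKM. serpinc1, which encodes the thrombin inhibitor antithrombin, had 3799, 3222 and 3521 FPKM. itih3, the inter-alpha-trypsin inhibitor heavy chain, had 3397, 3118 and 2346 FPKM. serpina1, the elastase inhibitor alpha-1-antitrypsin, was highest in replicate 3 with 2685, 2313 and 3797 FPKM. Coagulation factors and fibrinogen held 2.92% ± 0.264 of FPKM and had the smallest median spread of the plasma protein lists, an SD of 0.12 on the log2 scale over 15 detected genes, against 0.37 for all detected genes. The fibrinogen chains that form the clot stood at similar levels, with fgb at 5005, 5307 and 3685 FPKM, fga at 4413, 4685 and 4099 FPKM, and fgg at 3218, 3078 and 2232 FPKM. f2, prothrombin, had 2754, 2812 and 3131 FPKM, and kng1, kininogen, had 3511, 3075 and 4098 FPKM. All 3 chains were lowest in replicate 3 on the FPKM scale.

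Complement held 1.74% ± 0.432 of FPKM, with 29 of 30 members detected. LOC113636343, the leading C3-like gene and the convergence point of the pathways, had 1795, 1900 and 1062 FPKM. c9, which forms the membrane pore, had 1898, 1637 and 1150 FPKM. LOC113647727, a C1r-like initiator protease, had 1916, 2219 and 468 FPKM, lower in replicate 3 by more than any other complement gene above 1000 FPKM. The regulators LOC113640104, factor H-like, and cfi, factor I, went the other way, with 1106, 1241 and 1315 FPKM and with 880, 1114 and 1253 FPKM. Among hormone and vitamin carriers, which held 1.18% ± 0.116, rbp4 for the retinol carrier had 3793, 4167 and 2903 FPKM, and selenop for the selenium carrier had 3102, 3096 and 1645 FPKM. The thyroid hormone carrier ttr was the exception. It had 313, 51.4 and 1833 FPKM, one of the widest spreads in the liver. Antimicrobial and acute phase proteins held 0.390% ± 0.0441, led by the lectin LOC113653467, intelectin-2, with 390, 854 and 696 FPKM, and LOC113663582, serum amyloid P-component-like, with 743, 565 and 596 FPKM.

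**Figure D2:**
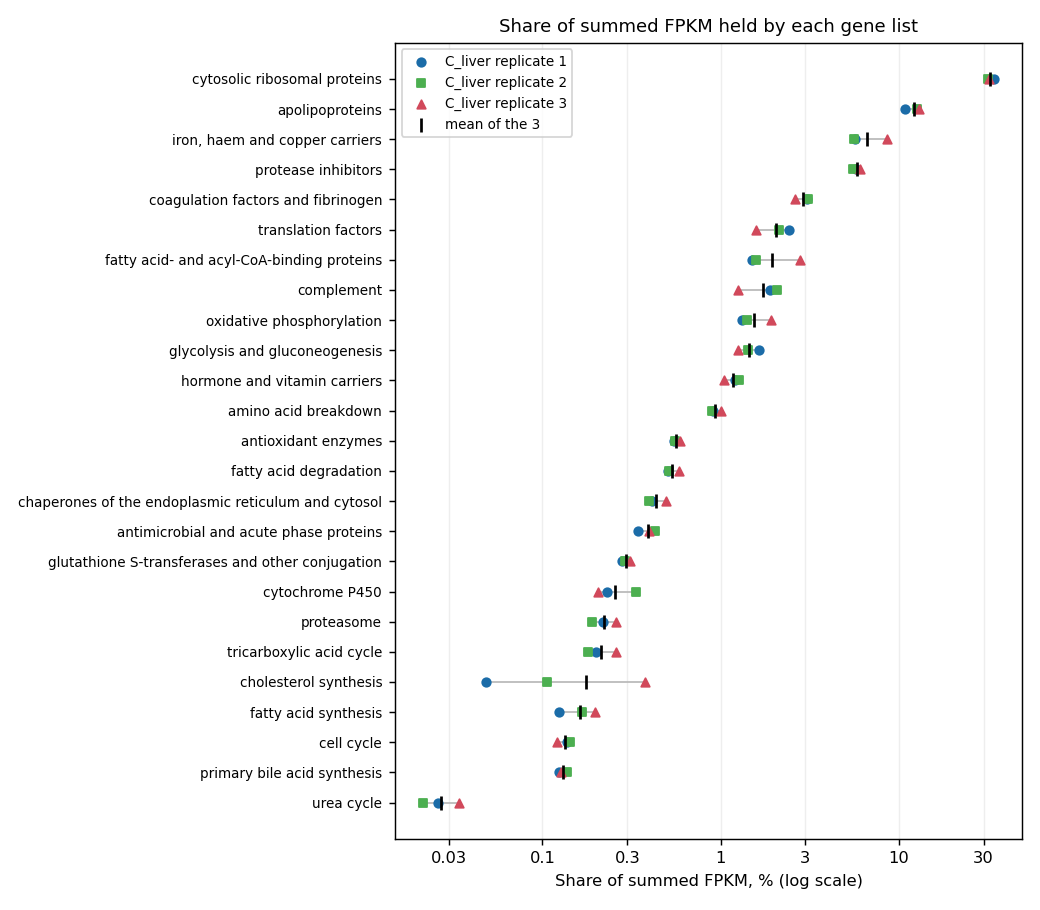
Share of summed FPKM (percent, log axis) held by the 25 lists of roles with a mean share over 0.01% in the 3 C_liver libraries, with the mean as a bar and a grey line from lowest to highest library. Cytosolic ribosomal proteins (32.8%) and apolipoproteins (12.1%) lead, and on this log axis cholesterol synthesis has the longest line of the lists plotted, from 0.0480% in replicate 1 to 0.375% in replicate 3.

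Cytosolic ribosomal proteins, the protein components of the ribosome, formed the largest list. Its 88 detected members held 34.3%, 31.6% and 32.3% of FPKM, a mean of 32.8% ± 1.40, but 16.5% ± 0.912 of counts. The members were uniform, with a median SD of 0.24 on the log2 scale. rplp1 led with 7333, 6950 and 7468 FPKM, followed by rpl23a with 6640, 5626 and 6035 FPKM, rpl32 with 4707, 5107 and 4838 FPKM, and rpl7a with 5248, 4295 and 4808 FPKM. Translation factors held 2.04% ± 0.427 over 70 detected genes and were lower in replicate 3 on the FPKM scale. Their leader LOC113661385, elongation factor 1-alpha, which delivers aminoacyl-tRNA to the ribosome, was steady at 4169, 3951 and 3701 FPKM. tpt1, the translationally controlled tumor protein, had 4798, 4074 and 2798 FPKM.

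Intracellular fat carriers held 1.95% ± 0.728 of FPKM, and 6 of 7 detected members were highest in replicate 3 in TMM-normalized CPM (trimmed-mean scaling), in CPM by total counts and in FPKM. Replicate 3 was highest for 38.0% of all detected genes under TMM and 21.2% under total counts. Besides LOC113658315, dbi, the acyl-CoA-binding protein, had 840, 1196 and 3368 FPKM, and fabp1, a further liver fatty acid-binding protein, had 325, 528 and 2839 FPKM. Replicate 3 thus exceeded the others by several times for both. LOC113661514, described as a heart-type fatty acid-binding protein, differed less, with 1770, 2108 and 2753 FPKM.

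Glycolysis and gluconeogenesis genes, which break down or build glucose, held 1.45% ± 0.195. gapdh led with 2484, 1989 and 1622 FPKM and LOC113647783, aldolase B, the liver form, had 1858, 1428 and 1119 FPKM. ldhb, the lactate dehydrogenase B chain, was 1006 and 1118 FPKM in replicates 1 and 2 and 99.7 FPKM in replicate 3. These genes were lowest in replicate 3 on the FPKM scale, but many other members were not. Of 59 detected members, 36 were highest in replicate 3 under TMM and 24 under total counts, against 38.0% and 21.2% of all detected genes. Genes for amino acid breakdown held 0.935% ± 0.0643, with 30 of 33 members detected. ahcy, which hydrolyses S-adenosylhomocysteine, had 1499, 1185 and 820 FPKM. The tyrosine-degrading 4-hydroxyphenylpyruvate dioxygenase was represented by LOC113634126 with 723, 608 and 1247 FPKM and LOC113637238 with 477, 508 and 1491 FPKM. Urea cycle genes were low, holding 0.0270% ± 0.00627. Apart from the arginase gene LOC113656635, with 161, 143 and 242 FPKM, no member reached a mean of 10 FPKM. cps1, whose enzyme feeds ammonia into the cycle, had 1.92, 1.79 and 0.0952 FPKM, and otc, the next enzyme, had 15.6, 2.51 and 6.60 FPKM. Most bony fishes excrete ammonia directly.

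Oxidative phosphorylation genes in the table held 1.55% ± 0.315 over 125 detected genes, with 1.32%, 1.42% and 1.91% in the libraries. LOC113652996, cytochrome c oxidase subunit 5B, had 447, 479 and 715 FPKM and atp5f1b, the catalytic subunit of ATP synthase, had 251, 265 and 457 FPKM. The KEGG map of the tricarboxylic acid cycle held 0.212% ± 0.0403. LOC113663570, the cytoplasmic and not the mitochondrial malate dehydrogenase, made up 25.1% of it, with 316, 196 and 678 FPKM. Fatty acid degradation held 0.537% ± 0.0442 and fatty acid synthesis 0.162% ± 0.0375. In the synthesis list the long-chain elongase elovl5 had 324, 434 and 381 FPKM and the desaturase fads2 had 197, 286 and 385 FPKM. The stearoyl-CoA desaturase gene LOC113636202, for the enzyme that makes monounsaturated fat, had 13.9, 29.3 and 214 FPKM. Of 19 detected members, 6 were at least 2-fold above both other libraries in replicate 3 and 2 at least 2-fold below, under TMM. Under total counts these were 6 and 3. All detected genes gave 5.98% and 5.90%, or 3.31% and 11.8%. The KEGG map of fatty acid biosynthesis held 0.0297%, 0.0407% and 0.0318% of FPKM in replicates 1, 2 and 3. Primary bile acid synthesis held 0.130% ± 0.00734, one of the evenest shares.

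Detoxification genes were moderate. Cytochrome P450 genes held 0.256% ± 0.0679 and were led by LOC113663405, CYP2X22, with 368, 390 and 222 FPKM. LOC113652605, a cytochrome P450 family 1 gene, had 138, 254 and 117 FPKM. Glutathione S-transferases and other conjugating enzymes held 0.294% ± 0.0161, with LOC113655345, microsomal glutathione S-transferase 3-like, at 516, 674 and 667 FPKM. Antioxidant enzymes held 0.565% ± 0.0272. gpx3, the secreted glutathione peroxidase, had 1644, 1993 and 1848 FPKM, and sod1, the cytosolic superoxide dismutase, had 229, 222 and 342 FPKM. Proteasome genes held 0.222% ± 0.0348 and cell cycle genes 0.134% ± 0.0113. The detected cell cycle genes had a median mean level of 3.22 FPKM, against 4.54 FPKM for all detected genes.

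The KEGG pathways deposited with the genes gave a similar order. Ribosome held 33.3% ± 1.44 of FPKM over 149 detected genes. PPAR signaling held 9.15% ± 1.55, of which LOC113652856 alone made up 71.8%. Complement and coagulation cascades held 7.02% ± 0.534. The Alzheimer's disease map came next with 4.65% ± 0.493, and apoc1 alone made up 98.9% of it, so a map's rank here could rest on a single liver gene. Maps were also grouped into classes by map number, counting a gene once per class. The class of genetic information processing held 47.1% ± 1.23 of FPKM and metabolism maps 10.3% ± 0.258. By its number PPAR signaling fell in the former class, although it is a signalling map, so the 47.1% includes LOC113652856.

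Markers of hepatocytes were clearly present. The hepatocyte list had 38 of 41 members detected and held 18.1%, 19.2% and 23.1% of FPKM. hnf4a, the hepatocyte transcription factor, had 20.1, 38.5 and 41.8 FPKM. Bile duct markers were detected for 3 of 6 members, led by LOC113660887, annexin A4, with 165, 174 and 139 FPKM. The other detected members had means of 16.3 and 15.4 FPKM, cftr had a mean of 0.00505 FPKM, and 2 members had no count. Macrophage markers were detected for 7 of 10 members at low levels, with a summed 165, 116 and 122 FPKM. The lysosomal macrosialin-like gene LOC113657532 was even, with 46.3, 47.5 and 43.0 FPKM, but most members were not. In TMM-normalized CPM, 5 of the 7 were highest in replicate 1, against 28.7% of all detected genes. In replicate 2, 6 of the 7 were lowest, against 33.0%. These counts depended on the scaling. Replicate 3 was lowest for 0 of the 7 under TMM but for 3 under total counts, where it was lowest for 6710 of all 11442 detected genes. Stellate cell and fibroblast markers included col1a2, a collagen chain, with 20.9, 24.3 and 42.7 FPKM. Of the 8 detected, 7 were highest in replicate 3 under TMM and 6 under total counts, against 38.0% and 21.2% of all detected genes. Past 2-fold above both others were 1 and 0. Endothelial markers stayed under 5 FPKM. No member of the T cell, endocrine pancreas, intestine, skeletal muscle, kidney or germ cell lists reached a mean of 1 FPKM. The vitellogenin gene LOC113651656, whose product is the yolk precursor made by the liver of females, had 0.234, 0.326 and 0.179 FPKM. The detected member of the vitellogenin and egg envelope list was LOC113660414, a zona pellucida-like domain protein, with 4.21, 13.7 and 0.714 FPKM.

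Red blood cell markers had a summed level of 1461, 1498 and 6211 FPKM, and 10 of 12 detected members were at least 2-fold higher in replicate 3 than in both other libraries, or 8 with scaling by total counts, against 5.98% and 3.31% of all detected genes. Of 26 haemoglobin gene models, which encode the oxygen carrier of red cells, 10 were detected. The highest, LOC113656777, a beta subunit on scaffold NW_020847992.1, had 267, 292 and 1254 FPKM. LOC113656766, an alpha subunit, had 165, 229 and 1024 FPKM. Of the models, 16 lie on that scaffold, and the split of reads between like copies is uncertain, so the members are not independent. The summed haemoglobin level was 1453, 1489 and 6194 FPKM. Bulk libraries cannot tell more cells of a type from more RNA per cell. Exocrine pancreas markers were low but also highest in replicate 3 for 18 of 18 detected members under either scaling, against 38.0% and 21.2% of all detected genes, with a summed 93.2, 68.8 and 233 FPKM, and 14 of the 18 were past 2-fold, or 12 with total counts. LOC113643711, trypsin-like, had 10.1, 12.7 and 50.7 FPKM. The part of red cells, exocrine pancreas, or stellate cells and fibroblasts in the other differences of replicate 3 was not tested.

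The libraries varied well beyond counting error. The median gene had a variance of 38.4 times its mean in scaled counts. Counting error alone gives 1 for independent fragments, and more where a fragment is counted more than once. The latter applies here, as counts in replicates 1 and 3 exceeded the reads left after filtering, so 1 is too low a benchmark. No pair of libraries agreed within the counting error of independent fragments. The common biological coefficient of variation, the spread between libraries beyond counting error, was 0.428. The median SD of log2 TMM-normalized CPM (CPM after trimmed-mean scaling of the libraries) was 0.37. Without replicate 3 these values became 0.345 and 0.22. The 0.22 is a median SD over 2 libraries and the 0.37 over 3, so their difference partly reflects the number of libraries. Across 11342 genes with a count in every library, log2 levels correlated with a Pearson coefficient of 0.936 between replicates 1 and 2, 0.902 between 1 and 3, and 0.879 between 2 and 3. Spearman coefficients were 0.922, 0.885 and 0.853. Genes are not independent, and these coefficients are descriptive. Genes over 2-fold apart made up 9.40% of the first pair, 17.7% of the second and 22.1% of the third. The median SD was 0.37 at 1 to 10 FPKM, 0.35 at 10 to 100 FPKM, 0.45 at 100 to 1000 FPKM and 0.25 at 1000 FPKM or more, so it was lowest in the most abundant genes but did not fall steadily with level.

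**Figure D3:**
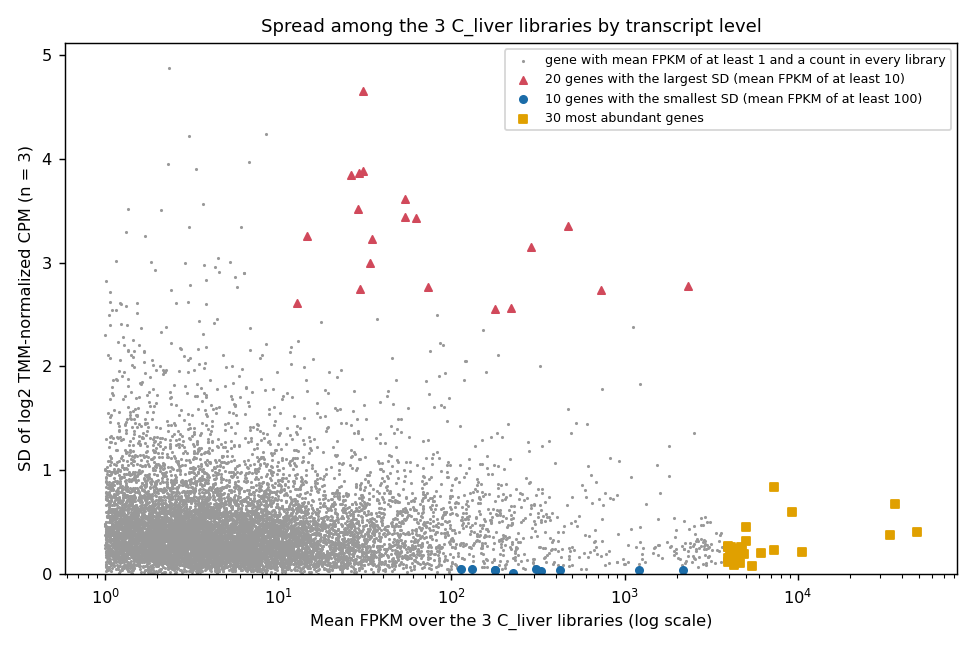
SD over the 3 C_liver libraries of log2 TMM-normalized CPM against mean FPKM (log axis), 1 point per detected gene with a count in every library. The 30 most abundant genes lie at the bottom right, and the 20 most variable genes lie at or above an SD of 2.55.

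Single libraries were compared with the other pair by counting genes at least 2-fold above, or below, both of them. Replicate 1 was above for 118 of 11442 genes (1.03%) and below for 152 (1.33%). Replicate 2 was above for 222 (1.94%) and below for 197 (1.72%). Replicate 3 was above for 684 (5.98%) and below for 675 (5.90%). Scaling by total counts in place of trimmed means changed the last pair to 379 (3.31%) and 1355 (11.8%). It lowered the median log2 ratio of replicate 3 to the others over all detected genes from -0.02 to -0.34, so the direction of a small difference in replicate 3 depended on the scaling. Cytosolic ribosomal protein genes showed this, being highest in replicate 3 for 78 of 88 genes under trimmed means and 40 of 88 under total counts, against 38.0% and 21.2% of all detected genes, with 0 of 88 past 2-fold under either. Oxidative phosphorylation genes were highest in replicate 3 for 106 of 125 genes, or 89 of 125 under total counts, against the same 38.0% and 21.2%. Of the 125, 42 were past 2-fold under trimmed means and 5 under total counts, the latter close to the 3.31% of all detected genes. Their median log2 ratio was 0.86, or 0.53 under total counts.

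The cholesterol synthesis list held 0.0480%, 0.106% and 0.375% of FPKM in replicates 1, 2 and 3, a 7.81-fold range. Of the lists of roles, only vitellogenin and egg envelope, with 1 detected member, had a larger ratio (14.7-fold). The pathway builds cholesterol from acetyl-CoA through mevalonate, squalene and lanosterol, and it is repressed in animals when sterols are plentiful. All 21 members were detected, and 18 were at least 2-fold higher in replicate 3 than in both other libraries under either scaling, against 5.98% and 3.31% of all detected genes. Their median log2 ratio was 2.64, or 2.31 under total counts. 16 members stood in the order replicate 1, replicate 2, replicate 3 from low to high, an order found in 16.5% of all detected genes. At the entry of the pathway, hmgcs1, HMG-CoA synthase, had 19.1, 60.2 and 375 FPKM. In the mevalonate steps, mvk, mevalonate kinase, had 2.72, 5.82 and 80.0 FPKM, and idi1, the isopentenyl diphosphate isomerase, had 8.10, 38.6 and 200.3 FPKM. fdps, which makes farnesyl diphosphate, had 20.2, 67.6 and 270.4 FPKM. In the sterol steps, sqle, the squalene epoxidase, had 12.2, 33.4 and 181 FPKM, lss, which closes the rings of lanosterol, had 12.2, 32.6 and 92.6 FPKM, and msmo1, the C4-methyl oxidase, had 33.3, 75.1 and 366 FPKM. Among the members that were not past 2-fold was tm7sf2, the delta(14)-sterol reductase, with 37.1, 53.8 and 49.3 FPKM. ldlr, the receptor that takes up lipoprotein cholesterol, had 10.4, 27.1 and 29.3 FPKM, and insig1, which holds back the sterol-sensing activator, had 16.7, 39.3 and 43.5 FPKM. These last genes are outside the list and were chosen after their values were seen.

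**Figure D4:**
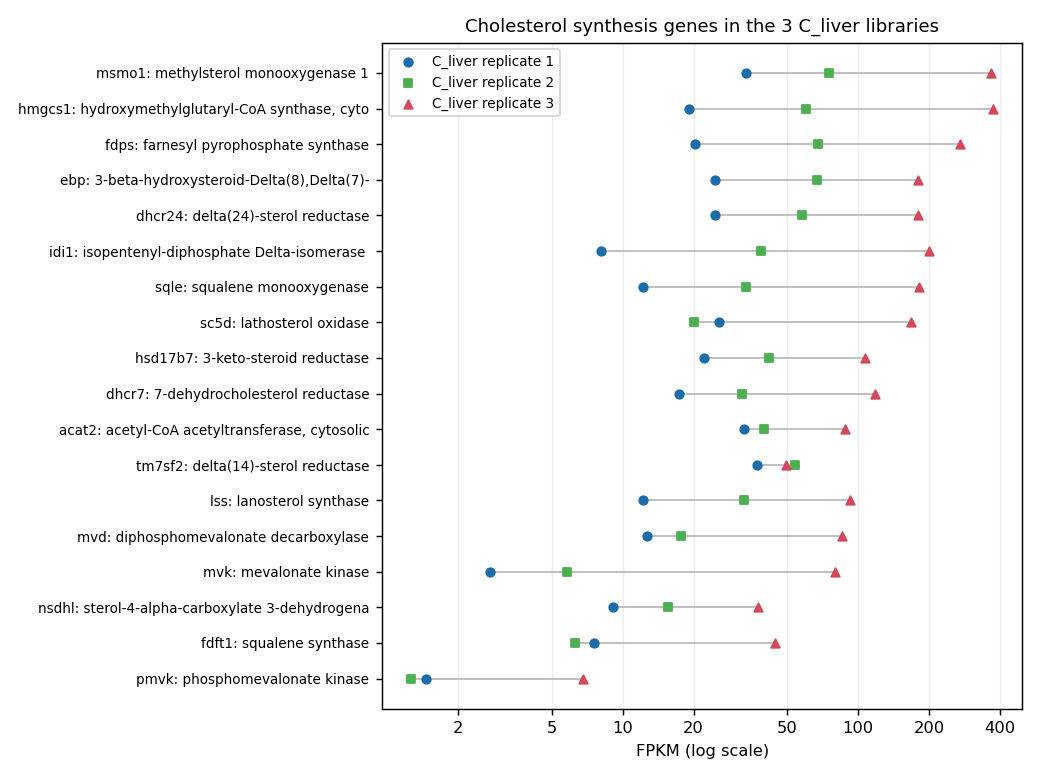
FPKM (log axis) of 18 of the 21 cholesterol synthesis genes in each C_liver library, in order of mean level. Replicate 3 lies to the right of both others for 17 genes, and tm7sf2 is the exception.

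The 20 genes with the largest spread, among 3217 with a mean of at least 10 FPKM and a count in every library, had SDs from 2.55 to 4.66 on the log2 scale. These genes were picked for their spread, and their values are a description. Replicate 3 was highest for 14 of them in TMM-normalized CPM, against 38.0% of all detected genes. A gene high in a single library could pass the filter on the mean through that library, so this count was shaped by the choice. LOC113660529, described as complement factor H, had 32.0, 0.189 and 60.8 FPKM, and the replicate 2 value rested on 16 counts. clps, the cofactor of pancreatic lipase, had 0.633, 2.25 and 89.6 FPKM. LOC113649718, apolipoprotein A-II, had 2.42, 0.510 and 75.8 FPKM. ucp1, a mitochondrial uncoupling protein, had 10.6, 1.64 and 150.5 FPKM. LOC113641836, mid1-interacting protein 1a, whose mammalian relative promotes fatty acid synthesis, had 26.2, 35.9 and 1352 FPKM. aacs, which makes acetoacetyl-CoA for lipid synthesis, had 3.18, 3.41 and 95.5 FPKM. sgk1, a stress- and hormone-induced kinase, had 4.47, 1.73 and 98.0 FPKM. Replicate 3 was at least 10 times the others for each of these genes from clps on.

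Other genes of the set were high elsewhere. gck, glucokinase, the enzyme that traps glucose in hepatocytes, had 804, 54.6 and 8.30 FPKM, so replicate 1 was far above the others. LOC113656598, a regakine-1-like chemokine, had 81.3, 4.67 and 0.461 FPKM. fkbp5, a co-chaperone of steroid receptors, had 4.24, 181 and 1.82 FPKM. cish, an inhibitor of cytokine signalling, had 0.650, 42.1 and 0.979 FPKM. Replicate 2 alone was high for both. LOC113661349, beta-microseminoprotein-like, had 3324, 136 and 3519 FPKM, whereas msmb, with the same description, had 4132, 7280 and 3626 FPKM. LOC113661349 runs from 329856 to 352977 on NW_020848067.1 and encloses msmb, from 345224 to 348360 on the same strand. The summed FPKM of the pair was 7456, 7416 and 7146, and the 3137 bp they share leave the split of reads between them uncertain.

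**Figure D5:**
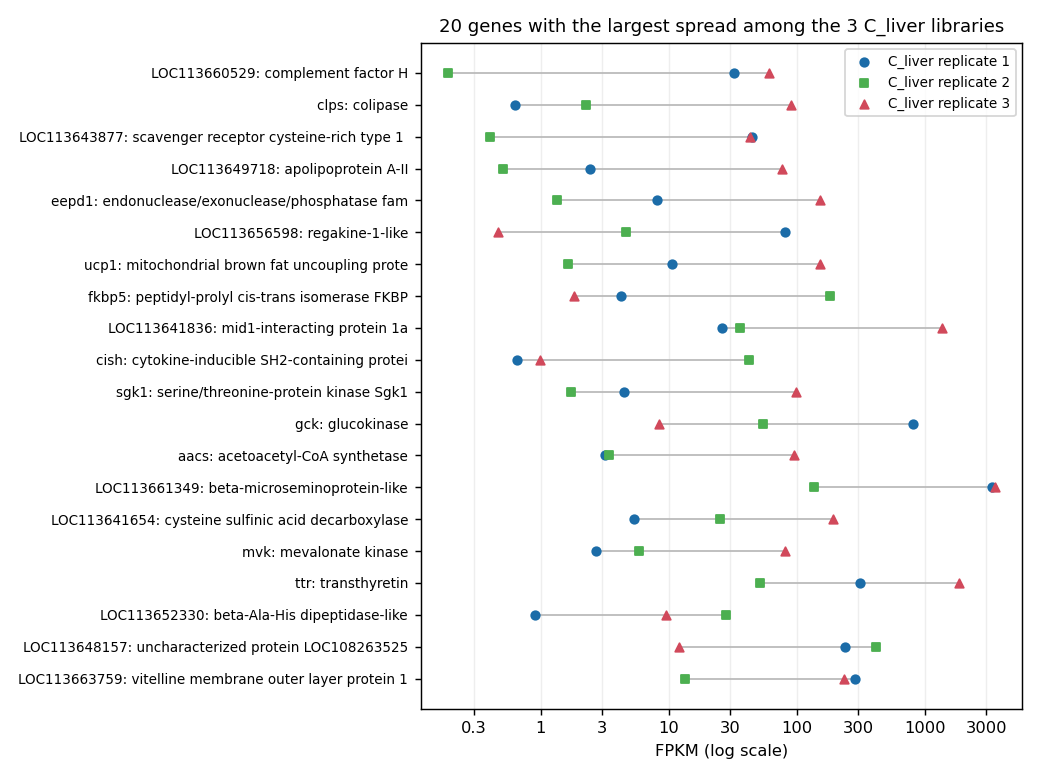
FPKM (log axis) in each C_liver library of the 20 genes with the largest SD of log2 level, in order of SD, with a grey line from lowest to highest library. Replicate 3 is the highest of the libraries for 14 genes by TMM-normalized CPM, and gck and LOC113656598 have replicate 1 highest.

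At the other end, the 10 steadiest of 567 genes with a mean of at least 100 FPKM differed by at most 6.51% between the highest and lowest library in TMM-normalized CPM. They included LOC113647373, glutathione S-transferase A-like, agt, the angiotensin precursor, and the carboxypeptidases cpn1 and cpb2 of plasma. LOC113647373 had 246, 241 and 196 FPKM, so its evenness held under trimmed-mean scaling and less so in FPKM. actb, the cytoplasmic actin often used as a reference gene, had 697, 536 and 781 FPKM, and its highest and lowest libraries differed 1.80-fold in TMM-normalized CPM.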

How the data were processed

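Poly(A)-selected liver RNA was sequenced in pairs by the submitters on an Illumina instrument. The submitters' processing notes name HISAT2 2.0, Bowtie 0.12.2 and StringTie 1.3.0. They name a mouse build, whereas the scaffolds in the table are not those of mouse, and the study's methods name a Tachysurus fulvidraco reference genome from NCBI. The version of that assembly is not given in the sources used here. The gene annotation, the counting program and the treatment of reads that fit several places are likewise not given in the sources used here. The authors deposited a table with, for each gene and library, raw read counts and FPKM, with symbols, descriptions and KEGG pathways. FPKM values that the authors listed at a very small constant for genes without a count were set to 0. The columns of the supplemented group were not analysed here.

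Counts of the 3 C_liver libraries were scaled by the TMM method of edgeR 4.0.16 over genes with a mean of at least 1 FPKM, and the dispersion was estimated with no covariates. The scaling factors were 1.10, 1.07 and 0.856 for replicates 1, 2 and 3. Medians of log2 ratios used CPM plus 0.5. DESeq2 1.42.0 size factors, total counts, other filters and leaving out each library were tried as alternatives. The dispersion step was checked on simulated counts of known dispersion. With a single condition there was no test and no p-value. FPKM was used to compare genes and to give levels and shares in each library. CPM was used for the spread among libraries and for counts of genes highest or past 2-fold in a library. FPKM set replicate 3 lower than TMM did, with a median log2 ratio to the others of -0.31 against -0.02 over all detected genes. Named genes were the 30 highest by FPKM, the 20 highest by share of counts, the 20 widest and 10 narrowest in log2 SD (with means of at least 10 and 100 FPKM), up to 4 leaders of each gene list, and actb. Other genes named are list members or neighbours and were chosen after their values were seen. Lists were matched on symbols and descriptions, or on KEGG membership, and the members and lists were chosen with earlier results of these data known. The values of some cholesterol synthesis genes are not reported here. Figures were drawn with matplotlib 3.10.9.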

Additional observations from a re-analysis of the deposited data

How the results depend on the processing

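The number of genes detected, 11442, became 5401 at a mean of at least 5 FPKM and 19475 when any count sufficed, and it ranged from 11258 to 11621 when each library was left out. The common coefficient of variation, 0.428, became 0.648 with no filter on low values, and it ranged from 0.345 to 0.470 when each library was left out, lowest without replicate 3. The median SD of log2 level, 0.37, ranged from 0.22 to 0.37 over the same omissions, an alternative added after the data were seen, and again it was lowest without replicate 3. Each omission leaves 2 libraries, so these SDs compare among themselves but not directly with the SD over 3. The share of counts of the 20 most abundant genes ranged from 26.8% to 29.7%. Under total counts or FPKM in place of TMM, also added after the data were seen, genes past 2-fold in replicate 3 became 379 or 381 above and 1355 or 1347 below, from 684 and 675. Thus 50.3% of those genes were above under TMM and 21.9% under total counts. Of 43 gene lists, 33 moved by more than 1 SD between libraries when shares of counts replaced shares of FPKM, 24 of them upward. Leaving out a library cannot move a mean of 3 by 1 SD, but without replicate 3 the mean FPKM of 35 of 200 named genes moved by over 1.5 times, against 8 without replicate 1 and 10 without replicate 2. The named genes were picked from these same values, the 20 widest in spread among them. These counts are thus partly set by that choice and do not describe all detected genes. No paired analysis was possible because a single group was described. For shares of gene lists, the 3 libraries and not counting error limit the precision.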

Other observations

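A few abundant genes fell outside the lists, and all were chosen after their values were seen. LOC113635021, described as small inducible cytokine A3 precursor, a chemokine that attracts leukocytes in mammals, had 1546, 2669 and 1734 FPKM in replicates 1, 2 and 3, more than any member of the macrophage or neutrophil lists. LOC113650937 and LOC113650938, neighbouring ribonuclease-like genes 1317 bp apart, had 2524, 2917 and 3889 FPKM and 2707, 895 and 1184 FPKM. LOC113660415, an uncharacterized gene, had 321, 2925 and 94.8 FPKM, so most of its mean came from replicate 2.

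LOC113641701, described as lymphoid-restricted membrane protein-like, was among the 30 most abundant genes at 4081, 4029 and 3872 FPKM. Deposited descriptions sometimes differed from the symbol, as for rps20, at 2294, 3079 and 3589 FPKM, described as the kinase mos. igf1, the liver-made growth factor, had 0.777, 0.450 and 1.41 FPKM. LOC113636550, the endoplasmic reticulum chaperone described as the 78 kDa glucose-regulated protein, had 18.0, 23.1 and 226 FPKM, while hsp90ab1, a cytosolic chaperone, had 455, 401 and 452 FPKM.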
